A study of Solanum lycopersicum with 2 samples.

Results

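The cells described here are the JAZ-high cells of the tomato root, those with the largest share of their transcripts from JAZ genes. JAZ proteins are the repressors of jasmonate signalling. Cells were ranked by the share of their UMIs, the molecular tags that let each captured transcript be counted once, from 9 listed JAZ genes, and the top 5% in each of 2 libraries were taken. This gave 513 of 10275 cells in replicate 1 and 349 of 6990 in replicate 2, or 862 cells in all against a rest of 16403. Cells entered the ranking with at least 2000 UMIs and at most 1% of UMIs from organelle genes, so that the 862 cells came from 22734 barcodes in the deposited tables. Of the 9 listed genes 8 were found in the tables, and the ninth, Solyc08g036620, was not analysed here. The list was taken from knowledge of tomato gene identifiers, since the tables hold identifiers with no names.

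The study profiled single cells of wild-type Solanum lycopersicum cultivar M82 roots by droplet sequencing of transcript 3′ ends. Both libraries belonged to 1 group, with no treatment, mutant or time course, and were labelled replicates 1 and 2. Each was made from the last 3 cm of primary root tips of seedlings 7 days after sowing, pooled over many plants. Cell walls were digested before capture, so that the cells were protoplasts, and the study lists genes that this step induces.

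Jasmonates are lipid hormones that plants make after wounding, insect attack and other stresses. Their synthesis starts in the plastid from membrane fatty acids, passes through the peroxisome and ends with the coupling of jasmonic acid to isoleucine. The conjugate binds the receptor COI1 together with a JAZ protein, the JAZ protein is degraded, and transcription factors of the MYC2 type are set free. Among the genes that these factors switch on are the JAZ genes themselves and the genes of jasmonate synthesis, so JAZ transcripts serve widely as a readout of recent jasmonate signalling.

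Replicate 1 held 187215851 UMIs over 12481 barcodes and replicate 2 held 81175339 over 10253. A total of 38 barcodes occurred in both libraries, 18 of them past the filters in both, and 0 were JAZ-high in both. JAZ-high cells were deeper than the rest. In replicate 1 the median cell had 14286 UMIs where the rest had 10705, and in replicate 2 it had 7666 where the rest had 6594. When every cell was thinned to 2000 UMIs, the median number of detected genes was 1227 against 1143 in replicate 1 and 1228 against 1153 in replicate 2. The part of depth in the results below was not tested beyond the matching and thinning given with them.

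The values that chose the cells are given as a description. The median JAZ share was 2852 UMIs per 1000000 in the JAZ-high cells of replicate 1 and 186 in its rest, and 5437 against 274 in replicate 2. A JAZ-high cell held a median of 44 JAZ UMIs in replicate 1 and 47 in replicate 2, where the median of the rest was 2 in both, and 21.6% and 22.2% of the rest held no JAZ UMI at all. The lowest JAZ-high cell of replicate 1 stood at 1596 per 1000000 (4 of 2506 UMIs) and the next cell below it at 1593 (13 of 8163). In replicate 2 the same pair stood at 3763 (43 of 11426) and 3762 (24 of 6380). The ranking had no gap at the limit, and the JAZ-high cells are the top of a range, not a type. Within 10% of the limit lay 54 JAZ-high cells above and 78 other cells below it in replicate 1, and 46 and 54 in replicate 2. The limit was also set higher by replicate 2. At the limit of replicate 1, 12.0% of the cells of replicate 2 would have been taken, and at the limit of replicate 2, 1.55% of the cells of replicate 1.

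Within the JAZ-high cells 1 gene held most of the signal. Solyc07g042170 made up 73.8% of JAZ UMIs in replicate 1 and 67.6% in replicate 2, at 2350 and 3918 counts per 1000000 UMIs (CPM) of the summed cells. UMIs of 3′ ends count transcripts whatever their length, so these shares are not scaled by gene length. Solyc03g122190 followed in replicate 1 with 8.80% and Solyc08g036660 in replicate 2 with 8.64%. In the rest Solyc07g042170 also led, with 65.4% and 69.5%, but the second place went to Solyc03g118540 with 22.1% and 14.7%, which held only 4.54% and 4.39% in the JAZ-high cells. After thinning to 2000 UMIs, 3 or more different JAZ genes were seen in 36.1% of JAZ-high cells against 0.563% of the rest in replicate 1, and in 71.1% against 2.39% in replicate 2. With all UMIs the shares were 84.8% against 14.9% and 96.0% against 16.2%.

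To ask whether the JAZ genes rose together in the same cells, each gene was tested in cells chosen by the other 7 measured JAZ genes, so that the choice did not use the gene tested. All 8 genes were higher in the cells so chosen, where 16.5%, 16.7%, 16.8%, 17%, 17.1% or 17.7% of all genes tested were called higher, depending on the gene left out. Solyc11g011030 and Solyc08g036660 had the largest fold changes, which did not differ beyond their errors, and the first led in replicate 1 (68.8-fold against 44.0-fold) and the second in replicate 2 (36.0-fold against 24.7-fold). Solyc11g011030 stood at 52.9 CPM against 0.769 in replicate 1 and 26.0 against 1.05 in replicate 2, so the chosen cells were far above the rest in both libraries. Its log2 fold change was 5.07 ± 0.42 (SE, n = 2 libraries; edgeR quasi-likelihood test, adjusted p = 0.00062). Solyc08g036660 stood at 131 CPM against 2.98 and at 421 against 11.7, a log2 fold change of 4.99 ± 0.23 (edgeR adjusted p = 0.000496). Solyc07g042170 stood at 2159 CPM against 192 and at 3213 against 371, a log2 fold change of 2.94 ± 0.20 (edgeR adjusted p = 0.000755). Solyc03g118540 had the narrowest gap, at 138 CPM against 54.0 and 232 against 72.0. Its log2 fold change of 1.19 ± 0.23 still passed the test (edgeR adjusted p = 0.00838) but did not without the library block (adjusted p = 0.0926). The other 4 genes lay between, from 1.78 for Solyc01g005440 to 4.40 for Solyc08g036640, and the latter also missed the threshold without the block (adjusted p = 0.0723). Solyc08g036640 and Solyc08g036660 have neighbouring identifiers, and whether reads were shared or lost between near-identical copies was not tested.

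**Figure D1:**
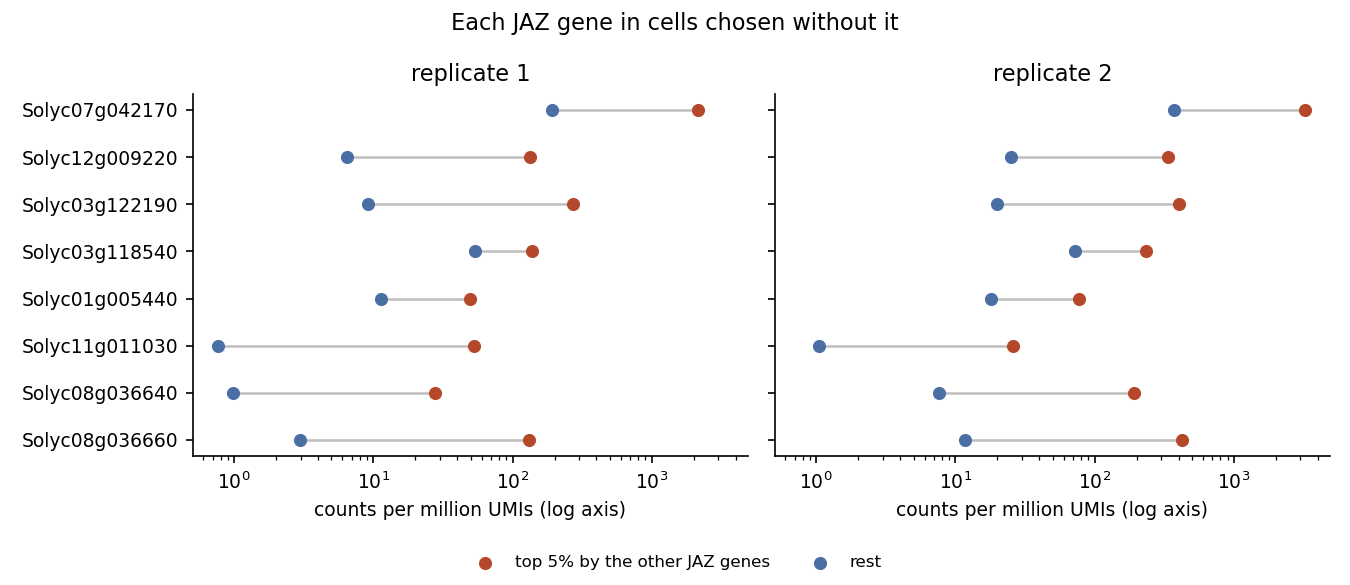
CPM of each JAZ gene (log axis, counts per 1000000 UMIs of the summed cells) in the top 5% of cells by the other 7 measured JAZ genes and in the rest, 1 point per library and set of cells with no error bar. In both libraries all 8 genes sit higher in the chosen cells, with the narrowest gap for Solyc03g118540. The widest gap is that of Solyc11g011030 in replicate 1 and of Solyc08g036660 in replicate 2.

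The JAZ genes differ in whether the study lists them as protoplasting-induced. The study's list keeps only genes past cutoffs on fold change and adjusted p, so a gene off it may still be induced. The study left the genes on it out of its own single-cell analysis. Of the 9 JAZ genes of the rule 5 are on that list (Solyc12g009220, Solyc03g122190, Solyc11g011030, Solyc08g036640 and Solyc08g036660). The gene with most UMIs, Solyc07g042170, is not. When cells were ranked by the induced JAZ genes alone and by the 3 measured genes that are not on that list, the top 5% of both rankings shared 290 cells (56.5% of each) in replicate 1 and 209 (59.9%) in replicate 2. Cells were also chosen on a random part of each cell's UMIs and read on the remaining part. The remaining UMIs gave 3190 JAZ CPM against 253 in the rest of replicate 1 and 5586 against 498 in replicate 2. In the part that chose them, these cells stood at 3362 and 5912 CPM. Both parts hold the same genes of the same cells, so this describes counting error in the choice and is no separate support. With all UMIs the JAZ-high cells of the main ranking stood at 3184 against 243 and 5796 against 485.

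The rest of the transcriptome was compared by summing counts over the JAZ-high cells and over the rest of each library and testing the sums, with the library as a block and the rule genes left out. These 4 sums leave 1 residual degree of freedom, so p-values lean on the spread shared over genes and measure only the spread between these libraries, for which nothing states separate seedling batches. Of 18844 genes tested, 3101 (16.5%) were higher and 3350 (17.8%) were lower in JAZ-high cells at an adjusted p under 0.05, and 1435 of the higher genes were so by more than 2 on the log2 scale. The direction was the same in both libraries for 3100 of the higher and for all 3350 of the lower genes. A gene of opposite directions in the libraries can hardly pass this test, so the count is no separate support. The split depends on scaling. With library totals alone, in place of TMM factors, the median of all genes moved from -0.02 to 0.32 and the calls were 4266 higher and 1877 lower, so that 69.4% of calls were higher in place of 48.1%. Fold changes here are relative to the TMM scale.

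The genes of jasmonate synthesis had the highest median fold change of the lists tested. Their summed level was 1327 CPM in JAZ-high cells against 132 in the rest of replicate 1, and 4377 against 308 in replicate 2. Of 9 listed genes 7 were tested, 5 were higher, against 16.5% of all genes, and 0 lower. The median log2 fold change was 2.89 against -0.02 for all genes tested. For 0 lower, the edgeR test without adjustment and the DESeq2 Wald test also gave 0. Without the library block 3 of the 7 were higher.

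Solyc02g085730 reached the highest level of the group in replicate 2. It stood at 339 CPM against 30.3 in replicate 1 and 2208 against 118 in replicate 2. Its JAZ-high sums were above both rest sums, and replicate 2 was far above replicate 1. The log2 fold change was 3.52 ± 0.29 (edgeR adjusted p = 0.00095). Solyc04g079730, on the protoplasting-induced list, stood at 176 CPM against 7.08 and 368 against 22.6. Its log2 fold change was 3.99 ± 0.26 (edgeR adjusted p = 0.000892). Solyc03g122340, also on that list, stood at 327 CPM against 24.1 and 837 against 68.4, and Solyc07g007870, which is not, at 453 against 59.9 and 902 against 77.8. Both were higher in both libraries, with log2 fold changes of 3.35 ± 0.22 (edgeR adjusted p = 0.000892) and 2.89 ± 0.27 (edgeR adjusted p = 0.0012). The values of genes on and off the induced list overlapped. Solyc10g011660 was higher by less, 1.02 ± 0.27 (edgeR adjusted p = 0.0285), from 26.5 CPM against 8.14 and 30.6 against 15.3. Solyc11g069800 and Solyc05g050280 did not pass the test, with log2 fold changes of 1.18 ± 0.58 and 1.39 ± 0.80. For Solyc11g069800 the libraries were unlike each other, with 3.53 CPM against 2.80 in replicate 1 and 31.2 against 5.33 in replicate 2.

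Synthesis genes also varied among the JAZ-high cells themselves. When the JAZ-high cells of replicate 1 were divided into 3 sets of 171 by JAZ share, the summed synthesis level was 2491 CPM in the highest set, 1124 in the middle set and 650 in the lowest. In replicate 2 the same order held, with 6550, 4375 and 3059 CPM. Even the lowest set of either library lay several-fold above the rest of its library. Down the whole ranking, cut into 20 sets of equal size, synthesis fell to 427 CPM in the second set of replicate 1 and to 1816 in that of replicate 2. It reached 121 and 178 CPM by the tenth set. The synthesis genes were not used for ranking, and the cells of a set share a library.

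The genes listed for perception and transcription differed by less and less evenly. Their summed level was 382 CPM against 124 in replicate 1 and 728 against 209 in replicate 2. Of 11 listed genes 10 were tested, and the other, Solyc05g052620, was not found in the counts. No level of the receptor COI1 is given here. Of the 10, 6 were higher, against 16.5% of all genes, with a median of 1.37. On the lower side 0 passed, also without adjustment and in DESeq2. Without the library block 1 of the 10 was higher. Solyc07g063410 led the list with 38.1 CPM against 1.56 and 124 against 6.69, a log2 fold change of 4.07 ± 0.25 (edgeR adjusted p = 0.000892). Solyc12g013620 was next at 3.86 ± 0.40 (edgeR adjusted p = 0.00145), but from low levels of 5.42 CPM against 0.251 and 20.0 against 1.27. Solyc08g005050, the most abundant of the 10 and on the protoplasting-induced list, stood at 192 CPM against 38.0 and 361 against 96.6. Its log2 fold change was 1.78 ± 0.22 (edgeR adjusted p = 0.00246). Solyc01g096050, Solyc05g050560 and Solyc08g076930 were higher by 2.01 ± 0.40, 1.58 ± 0.42 and 1.16 ± 0.24. The remaining 4 genes, Solyc12g070100, Solyc03g117360, Solyc06g083980 and Solyc05g018320, did not pass the test and lay between -0.01 and 0.44. With library totals alone Solyc12g070100 passed at 0.78 (edgeR adjusted p = 0.0484), and Solyc05g018320 stood at 0.33.

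**Figure D2:**
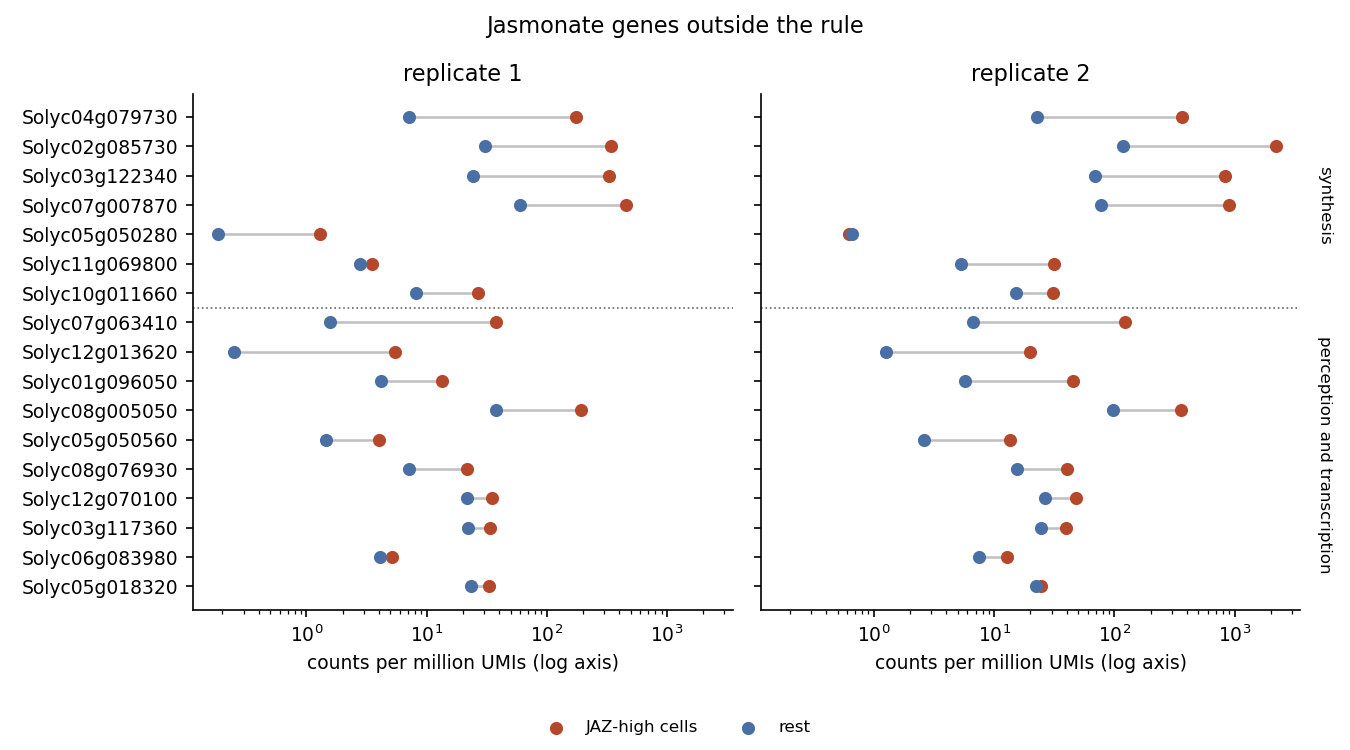
CPM (log axis) of the jasmonate genes tested outside the rule, in the summed JAZ-high cells and the summed rest of each library, 1 point each with no error bar; genes above the dotted line are listed for synthesis and those under it for perception and transcription. The first 4 synthesis genes lie far apart between the sets of cells in both libraries, and the last 4 genes of the lower group lie close together.

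Of 4 further JAZ or TIFY genes outside the rule, 3 were found in the tables, and of these Solyc06g068930 alone had enough counts to be tested. It stood at 5.18 CPM against 5.04 in replicate 1 and 12.5 against 7.82 in replicate 2, a log2 fold change of 0.02 ± 0.35 that did not pass the test, nor did it in DESeq2 or without adjustment. Against the matched cells described below it was higher by 1.30 ± 0.40 (edgeR adjusted p = 0.0135), but did not pass in DESeq2.

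Genes of steroidal glycoalkaloid synthesis ran opposite to the jasmonate genes. These alkaloids are made from cholesterol and defend tomato and its relatives, and in tomato their genes are known to respond to jasmonate through a factor of the AP2/ERF family. Their summed level was 365 CPM in JAZ-high cells against 1832 in the rest of replicate 1 and 189 against 1374 in replicate 2. All 7 genes tested of 9 listed were lower, against 17.8% of all genes, with a median of -2.94. The others, Solyc01g090340 and Solyc01g073640, were not found in the counts, and no level of the AP2/ERF factor is given here. Solyc07g043420, the most abundant, stood at 278 CPM against 1387 and 146 against 1094, a log2 fold change of -2.94 ± 0.24 (edgeR adjusted p = 0.000945). Solyc07g043500 had the lowest value, -3.33 ± 0.33, and Solyc12g006470 the highest, -1.61 ± 0.33. Several of these identifiers are neighbours, and sharing of reads among them was not tested.

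The difference was smaller where cells of the same cluster were compared, as described below. Along the ranking the summed level in replicate 1 was 365 CPM in the set of highest JAZ share, 1322 in the tenth set and 2964 in the sixteenth, and in replicate 2 it was 189, 908 and 3020. The sixteenth set held deep cells, whose median depth was 43742 UMIs in the first library and 20887 in the second, and the 4 sets after it held no JAZ UMI. The part of depth in this order was not tested.

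**Figure D3:**
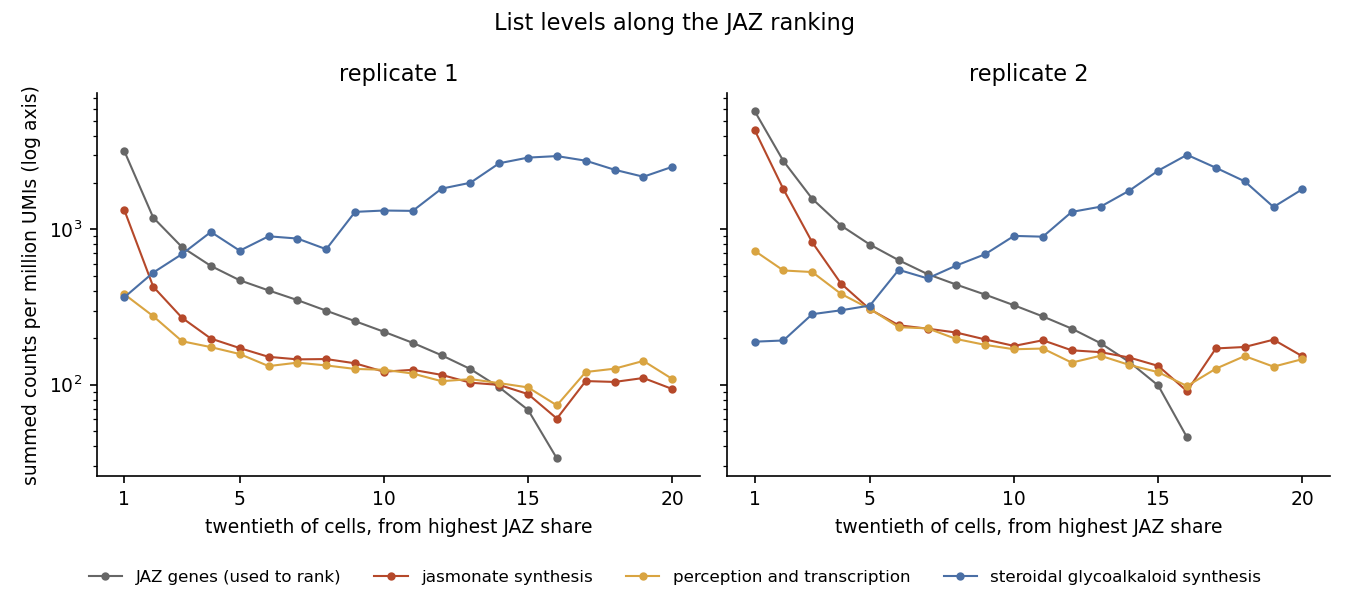
Summed CPM of 4 gene lists (log axis) in 20 sets of cells ordered by JAZ share from highest (1) to lowest (20), in each library, with no error bars; the last 4 sets hold no JAZ UMI, so their JAZ points are missing and their order carries no information. The synthesis list drops from 1327 and 4377 CPM in the first set to 121 and 178 in the tenth, while the glycoalkaloid list climbs from 365 and 189 to 1322 and 908.

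Protoplasting-induced genes moved in both directions. Outside the rule genes, the summed level of the induced list was 46958 CPM against 45405 in replicate 1 and 70717 against 54938 in replicate 2. Taken cell by cell, the gap between the medians was wider. The median JAZ-high cell stood at 48031 CPM against 37565 in the rest of replicate 1, and at 73480 against 27182 in replicate 2. The upper quartile of the rest, 70423 CPM, lay above that of JAZ-high cells, 64250, in replicate 1, but not in replicate 2 (63473 against 104816). Of 744 listed genes tested, 248 (33.3%) were higher and 320 (43.0%) were lower, both above the 16.5% and 17.8% of all genes, and the median was -0.79. Within the JAZ-high cells the level was highest in the set of highest JAZ share, with 61417, 43527 and 39439 CPM from highest to lowest in replicate 1 and 99196, 68535 and 55356 in replicate 2. The last set of the ranking, whose cells held no JAZ UMI, stood at 61839 CPM in replicate 1 and 62836 in replicate 2. The part of protoplasting in the jasmonate genes was not tested. The ranking by genes off the list is no test of it, since those genes may be induced too.

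Genes that carry a description in the study's tables, which centre on suberin and related expression modules, were examined as a further group. Suberin is the lipid and phenolic polymer laid down in the cell walls of barrier layers such as the exodermis. Of 154 such genes outside the lists, 49 (31.8%) were higher and 12 (7.79%) lower, against 16.5% and 17.8% of all genes. This group was picked by the study around its own module and is not a sample of all genes.

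Among annotated genes with a mean of at least 10 CPM the largest rise was in SlMYB41 (Solyc02g079280), a homologue of an Arabidopsis activator of suberin genes. It stood at 19.0 CPM against 0.279 in replicate 1 and 50.6 against 1.72 in replicate 2, so that both JAZ-high sums lay far above both rest sums. The log2 fold change was 5.12 ± 0.39 (edgeR adjusted p = 0.000902). An ethylene-responsive transcription factor, Solyc04g071770, followed with 54.2 CPM against 1.03 and 366 against 12.5, a log2 fold change of 4.95 ± 0.30 (edgeR adjusted p = 0.000892). Ethylene-responsive factors bind the promoters of stress and defence genes. WRKY transcription factor 8 (Solyc02g093050), of a family known for defence and wound responses, stood at 173 CPM against 12.0 and 207 against 22.4, a log2 fold change of 3.19 ± 0.25 (edgeR adjusted p = 0.000936). A shared direction in both libraries was a condition for naming these genes. The matched comparison, which uses the same JAZ-high cells, also called these 3 regulators higher.

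Genes of other roles stood with them. A dehydrin (Solyc02g062390), a protein of water-deficit responses, was higher by 4.48 ± 0.74 (edgeR adjusted p = 0.00595), from 8.48 CPM against 0.0798 and 35.6 against 3.23. A non-specific serine/threonine protein kinase (Solyc06g082440) was the most abundant of the named genes in JAZ-high cells, at 678 CPM against 52.6 and 1400 against 168, a log2 fold change of 3.04 ± 0.24. Protein phosphatase 2C (Solyc03g096670), of a family that includes brakes on abscisic acid signalling, stood at 89.7 CPM against 6.04 and 429 against 48.6. Its log2 fold change was 3.18 ± 0.26. A cytochrome P450 (Solyc10g083690), an ABC transporter (Solyc06g074940), a kinase family protein (Solyc01g111570) and Solyc05g009550, described as a regulator of Vps4 in the multivesicular body pathway, were higher by 3.52, 3.26, 3.30 and 4.28. A cytokinin riboside 5'-monophosphate phosphoribohydrolase (Solyc04g081290), which releases active cytokinin, was higher by 3.04 ± 0.26, and a lipid transfer protein (Solyc09g082280) by 2.75 ± 0.32. All 12 named higher genes were called higher in the matched comparison too, against 14.3% of all genes, with values from 0.96 to 2.57. The 12 were picked by their fold change in the same JAZ-high cells, so this is no separate support.

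Annotated genes on the lower side were fewer and changed by less. A GDSL esterase/lipase (Solyc06g065530) was lower by 2.38 on the log2 scale, with -2.38 ± 0.48 (edgeR adjusted p = 0.0116), from 4.59 CPM against 10.7 and 2.50 against 24.2. A pathogenesis-related protein (Solyc09g090980) stood at 56.6 CPM against 117 and 34.4 against 258, a log2 fold change of -2.29 ± 0.43. An acidic extracellular chitinase (Solyc02g082920), on the protoplasting-induced list, stood at 54.3 CPM against 95.9 and 10.9 against 96.1. Its log2 fold change was -2.20 ± 0.50, but against matched cells it was higher, 0.73 ± 0.23 (edgeR adjusted p = 0.0188). Of the other named lower genes, Solyc06g073180, described as a CONSTANS interacting protein, lay at -1.57 and Solyc04g008590, a pyruvate dehydrogenase, at -1.41. Histone H2A (Solyc09g065755), Solyc04g014370, a dehydratase of very-long-chain fatty acid elongation, and Solyc02g092130, a transmembrane protein, lay at -1.16, -1.10 and -1.07, and these 3 no longer passed with library totals alone, at -0.82, -0.77 and -0.73 (edgeR adjusted p = 0.0704, 0.0665 and 0.068).

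Beyond the annotated genes, the largest rises were in Solyc03g025640 (85.5 CPM against 1.28 and 290 against 6.69) and Solyc08g081610 (11.1 against 0.0969 and 33.1 against 1.14). The largest falls were in Solyc09g097770 (2.24 CPM against 60.8 and 3.75 against 89.0) and Solyc08g080700 (0.589 against 13.9 and 0.937 against 25.8). The log2 fold changes were 5.41, 5.38, -5.02 and -4.99. The sources used here give them no description.

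Cell types were looked for through clusters built without the rule genes and the protoplasting-induced genes. Clusters with fewer than 10 cells in a library were set aside, which left 25 of 30. Those set aside were not all small. Clusters 11, 12, 16 and 28 held 636, 634, 465 and 126 cells in replicate 2 but 1, 1, 0 and 0 in replicate 1. They held 0 JAZ-high cells. Cluster 30 held 5 JAZ-high of 9 cells in replicate 1 and 1 of 32 in replicate 2. Of the 25 kept, 20 held JAZ-high cells in replicate 1 and 10 in replicate 2. Most JAZ-high cells lay in 4 clusters, numbered 24, 14, 10 and 13. These held 72.1% of the JAZ-high cells of replicate 1 and 80.8% of those of replicate 2. The same clusters held 8.72% and 16.8% of all cells.

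Cluster 24 was the densest of the clusters kept. In it 70.4% of cells (95% exact interval 63.9% to 76.2%, counting error only) were JAZ-high in replicate 1 and 56.0% (46.8% to 64.9%) in replicate 2. Cluster 14 followed with 47.2% (38.1% to 56.4%) and 35.2% (30.4% to 40.3%). Neither had 3 markers of a listed cell type at their highest level, so both keep their numbers. Cluster 24 held more of the JAZ-high cells in replicate 1 (31.0% against 11.3% in cluster 14). Cluster 14 held more in replicate 2 (37.5% against 20.1%), so the sums of both libraries draw on different mixtures. The order depends on the setting. In a finer clustering (resolution 2) 1 cluster held 71.6% JAZ-high cells in replicate 1 and 50.4% in replicate 2, and another 70.0% and 56.0%. With all listed genes also left out of the clustering, the densest held 57.5% and 54.6%. The next by mean held 30.4% and 30.5%.

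Cluster 13, named endodermis-like because 4 of 5 listed endodermis markers peaked in it, held 31.2% (25.4% to 37.5%) JAZ-high cells in replicate 1 and 12.0% (8.65% to 16.0%) in replicate 2. The endodermis is the innermost cortical layer, sealed by the Casparian strip. Cluster 27, exodermis-like because all 9 suberin genes listed as exodermis markers peaked in it, held 23.8% (12.1% to 39.5%) and 10.7% (5.85% to 17.7%), though this was only 10 and 13 cells. Cluster 10, which has no name, held 25.5% (20.7% to 30.7%) and 11.9% (8.69% to 15.7%). Clusters 8, 15, 19, 21 and 29 held 0 JAZ-high cells of 1896 in replicate 1 and 0 of 253 in replicate 2, which allows shares of up to 0.158% and 1.19%.

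**Figure D4:**
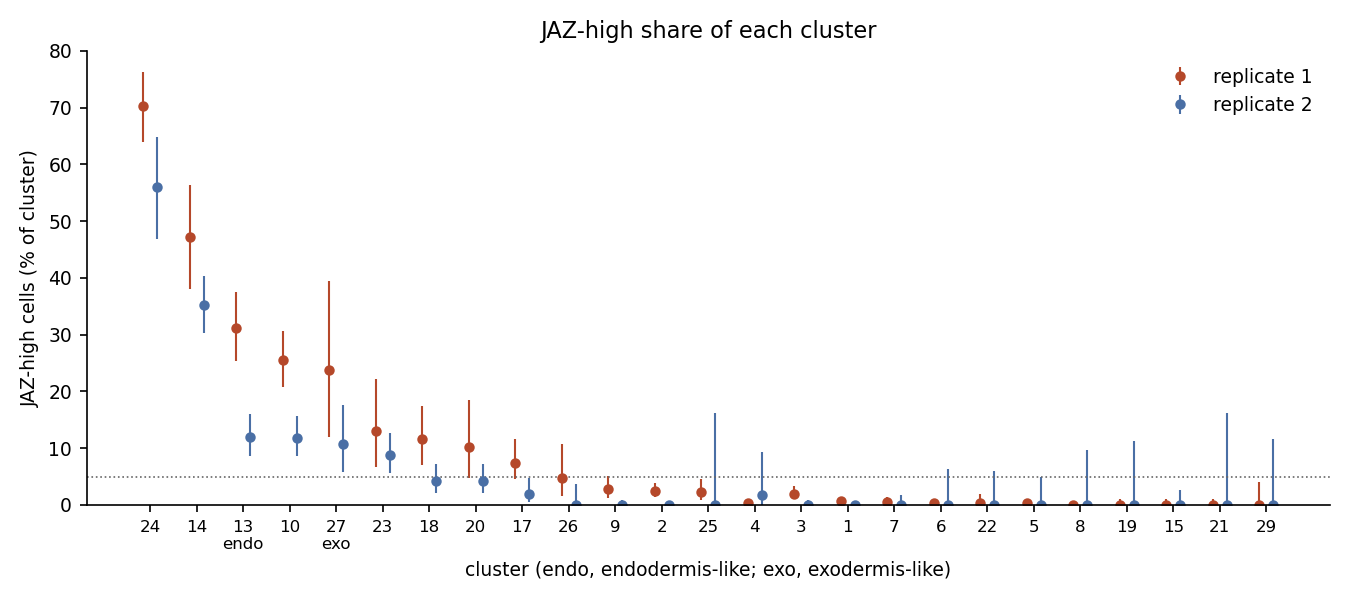
JAZ-high cells as a percentage of each cluster (the 25 clusters not set aside), ordered by the mean of both libraries, with exact 95% binomial intervals that cover counting error only; the dotted line marks the 5% that the rule takes from each library. Clusters 24 and 14 stand above all others in both libraries.

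Inside these clusters the jasmonate synthesis genes still stood higher in JAZ-high cells than in their neighbours, as a description with no test. In cluster 24 synthesis genes summed to 2197 CPM in JAZ-high cells against 725 in the other cells of replicate 1, and to 6313 against 2277 in replicate 2. In cluster 14 the levels were 1340 against 429 and 5533 against 1543. In the endodermis-like cluster they were 1096 against 267 and 2986 against 588. The same direction held in the exodermis-like cluster, at 2550 against 117 and 3005 against 592. The other cells of cluster 24 stood above the rest of their whole library, at 132 and 308 CPM. Perception and transcription genes did not follow in every cluster. In cluster 24 they summed to 414 CPM in JAZ-high cells against 440 in replicate 1 and 601 against 649 in replicate 2, and in cluster 14 to 684 against 394 and 1100 against 558.

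The JAZ genes were not expressed in the same proportions in each cluster. Among JAZ-high cells Solyc11g011030 stood at 136 CPM in cluster 24 of replicate 1 and 121 in replicate 2. In cluster 14 it had 0 UMIs in replicate 1, which allows up to 4.81 CPM, and stood at 5.84 CPM in replicate 2. In the endodermis-like cluster it stood at 51.6 CPM in replicate 1 and had 0 UMIs in replicate 2, which allows up to 6.99 CPM. In cluster 10 it stood at 5.42 and 1.65 CPM. Of these 4 clusters Solyc08g036660 was highest in cluster 14, with 224 CPM in replicate 1 and 1078 in replicate 2, against 159 and 361 in cluster 24. Solyc07g042170 varied little in comparison, from 1975 to 2803 CPM over these 4 clusters in replicate 1 and from 3531 to 4169 in replicate 2. The pattern was not confined to these clusters. In the exodermis-like cluster, with 10 and 13 JAZ-high cells, Solyc08g036660 stood at 582 CPM in replicate 1, above cluster 14, and 427 in replicate 2. Solyc11g011030 stood there at 145 and 72.6 CPM, from only 15 and 8 UMIs. All these values are descriptions, since the JAZ genes chose the cells.

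Among genes listed as markers of the other cell types, some of endodermis and phloem were called higher in JAZ-high cells. Those of xylem and outer layer uptake were not. Outside the endodermis, these lists did not mark 1 cluster each. The phloem genes peaked in clusters 3 and 18, the xylem genes in 26, 3 and 26, and the uptake genes in 1, 20, 2 and 4. Solyc01g087210, listed for xylem and highest in cluster 3, had a median of 140 CPM over clusters. Calls in these lists are thus calls of single genes, not of a cell type. Endodermis markers summed to 313 CPM against 19.1 in replicate 1 and 350 against 107 in replicate 2, and 2 of 4 tested were higher, against 16.5% of all genes, and 0 lower. DESeq2 called 3 higher and 0 lower, and edgeR without the library block called 0 (2 higher at an unadjusted p under 0.05). Solyc06g074230 led with 259 CPM against 14.5 and 308 against 84.3, a log2 fold change of 2.68 ± 0.52 (edgeR adjusted p = 0.0104), followed by Solyc07g006750 with 2.45 ± 0.55. Both phloem markers were higher, Solyc11g017010 by 1.72 ± 0.32 and Solyc12g017370 by 1.60 ± 0.44, from a summed 26.7 CPM against 4.38 and 53.1 against 19.0, but only 1 of them passed without cluster 24 and 0 without the library block (0 also without adjustment). Of 3 xylem markers 0 passed in either direction, also without adjustment and in DESeq2, though 1 was lower without cluster 24, and Solyc02g072240 ran in opposite directions, with 31.9 CPM against 4.19 in replicate 1 and 1.25 against 10.2 in replicate 2. Of 3 uptake markers of outer layers only Solyc09g090070 passed and was lower, with 7.07 CPM against 34.1 and 10.6 against 75.5. The part of this cell mixture in the differences above was not tested in the comparison with the whole rest, and the matched comparison below holds the cluster fixed.

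The suberin genes that mark the exodermis gave a mixed picture. Of 8 tested, 4 were higher and 1 was lower, against 16.5% and 17.8% of all genes. DESeq2 called 3 higher and 1 lower, and edgeR without the library block called 0 in either direction (0 higher and 1 lower without adjustment). SlKCS2b (Solyc03g005320), a 3-ketoacyl-CoA synthase of fatty acid elongation, stood at 2.83 CPM against 1.01 in replicate 1 and 110 against 9.36 in replicate 2, a log2 fold change of 2.35 ± 0.53 (edgeR adjusted p = 0.0173). SlASFT (Solyc03g097500), the feruloyl transferase of suberin, stood at 18.1 CPM against 3.76 and 140 against 29.8, a log2 fold change of 1.92 ± 0.23 (edgeR adjusted p = 0.00207). In both genes the level was far higher in replicate 2. The exodermis-like cluster held 42 cells in replicate 1 and 121 in replicate 2, of which only 10 and 13 were JAZ-high. Few cells carried these levels. After thinning, SlASFT was seen in 1.56% and 4.30% of JAZ-high cells, against 0.502% and 2.08% of the rest. SlKCS2b was seen in 0.390% and 3.72%, against 0.348% and 1.42%. In replicate 2 the sets of highest, middle and lowest JAZ share held 21, 766 and 175 UMIs of all exodermis markers. SlCYP86B1 (Solyc02g014730) and SlLACS4 (Solyc01g095750) were higher by 1.67 ± 0.49 and 1.55 ± 0.38, while SlKCS2a (Solyc09g083050) was lower, -1.46 ± 0.42 (edgeR adjusted p = 0.0365). Counts in JAZ-high cells of replicates 1 and 2 were low. SlCYP86B1 had 6 and 23 UMIs, SlLACS4 had 18 and 52 and SlKCS2a had 15 and 13. With library totals alone SlKCS2a missed the threshold, at -1.12 (edgeR adjusted p = 0.0747).

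JAZ-high cells were finally set against cells of the same library and cluster with the closest depth, 1 for each. A partner was found for 420 of 513 cells in replicate 1 and 334 of 349 in replicate 2, with a median of 16432 UMIs against 13942 and 7968 against 7548. Cells of cluster 24 could not all be paired, since most of that cluster was JAZ-high. Of 14985 genes tested, 2140 (14.3%) were higher and 1637 (10.9%) lower. Of the calls in the comparison with the whole rest, 1710 higher and 1113 lower genes were called in the same direction here, and 29 were called in the opposite direction. Without the library block edgeR called 0 higher and 0 lower (899 genes of either direction at an unadjusted p under 0.05), and the DESeq2 Wald test with the block called 1044 and 615.

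In this comparison 4 of 6 jasmonate synthesis genes were higher, against 14.3% of all genes, and 0 lower. DESeq2 gave the same counts, and there 0 were lower without adjustment too. The median was 1.63 against -0.02 for all genes tested. Solyc02g085730 was higher by 2.16 ± 0.23 (edgeR adjusted p = 1.01e-08), Solyc07g007870 by 1.76 ± 0.21, Solyc04g079730 by 1.74 ± 0.20 and Solyc03g122340 by 1.52 ± 0.21. Solyc10g011660, called against the whole rest, was at -0.24 ± 0.21 here and did not pass. In DESeq2 3 of 10 perception and transcription genes were higher, and in edgeR 4 were, against 14.3% of all genes. They were Solyc12g013620 (2.08 ± 0.39), Solyc07g063410 (1.80 ± 0.21), Solyc01g096050 (1.65 ± 0.26) and Solyc05g050560 (1.15 ± 0.38). Solyc08g005050, called against the whole rest, was at 0.44 ± 0.20 (edgeR adjusted p = 0.0951).

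Glycoalkaloid genes differed far less than against the whole rest. In edgeR 3 of 7 were lower, where 10.9% of all genes were, against 0 in DESeq2 (2 at an unadjusted p under 0.05). They were Solyc07g043500 (-0.95 ± 0.32), Solyc07g043460 (-0.74 ± 0.22) and Solyc07g043420 (-0.60 ± 0.21), and the list's median was -0.60 in place of -2.94. Of 8 exodermis markers 4 were lower (3 in DESeq2), against 10.9% of all genes. In either tool 0 were higher, also without adjustment, and the median was -0.82 in place of 1.61. SlGPAT4 (Solyc01g094700), a glycerol-3-phosphate acyltransferase, was at -2.38 ± 0.36 (edgeR adjusted p = 3.55e-06) and SlKCS2a at -2.01 ± 0.36 (edgeR adjusted p = 4.51e-05), and SlFAR3A (Solyc06g074390) and SlLACS4 were at -1.95 ± 0.45 and -0.97 ± 0.29. Counts were low. Over all JAZ-high cells, SlGPAT4 had 11 UMIs in replicate 1 and 14 in replicate 2, and SlKCS2a had 15 and 13. SlFAR3A had 2 and 18, and SlLACS4 had 18 and 52. The exodermis-like cluster, where these markers peaked, held only 10 and 13 JAZ-high cells. SlMYB41 stayed on the higher side, at 2.26 ± 0.28 (edgeR adjusted p = 7.82e-08). Of 4 endodermis markers only Solyc06g074230 was still higher, at 0.61 ± 0.22 (edgeR adjusted p = 0.0394), and it did not pass in DESeq2. Both phloem markers missed the threshold in edgeR, also without adjustment, and in DESeq2. Of 3 xylem markers Solyc09g072820 was higher, at 1.06 ± 0.28 (edgeR adjusted p = 0.00407), and Solyc01g087210 lower, at -0.57 ± 0.19 (edgeR adjusted p = 0.0287), and DESeq2 called 0 of the 3 (1 higher and 1 lower without adjustment). Of protoplasting-induced genes outside the rule 238 of 609 (39.1%) were higher and 145 (23.8%) lower, against 14.3% and 10.9% of all genes. Their median was 0.29.

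**Figure D5:**
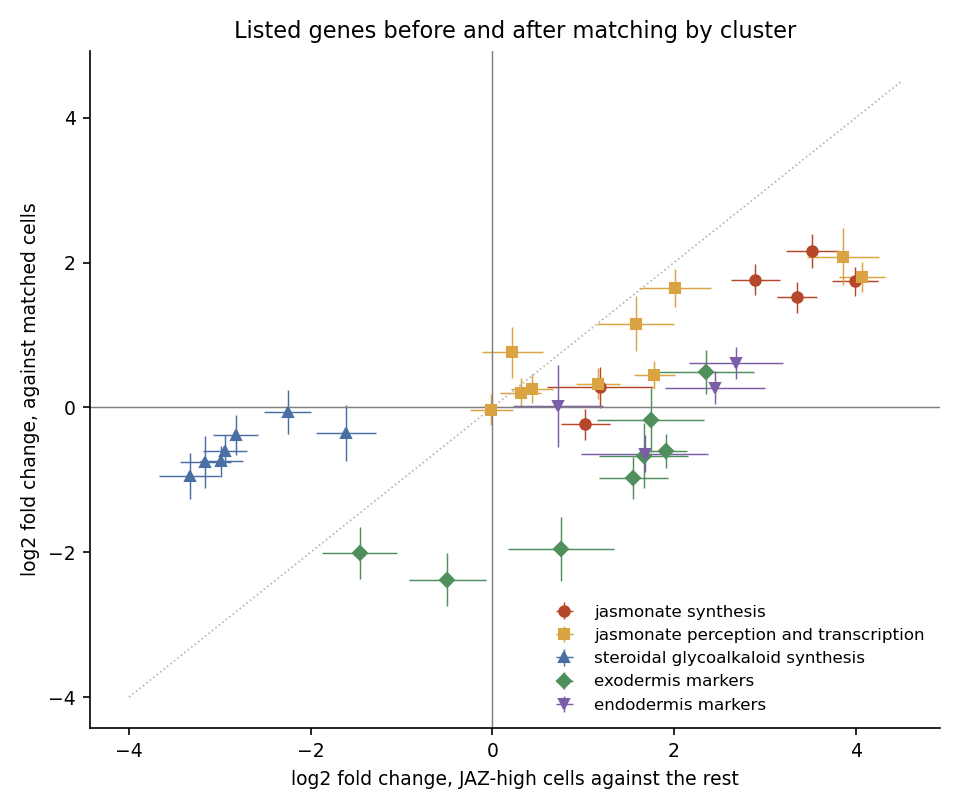
Log2 fold change of each listed gene in JAZ-high cells against the whole rest (horizontal axis) and against cells matched by cluster and depth (vertical axis), with bars of 1 SE; the dotted line marks equal values. Jasmonate synthesis genes keep values up to 2.16 after matching, glycoalkaloid genes stay below 0 but no lower than -0.95, and most exodermis markers fall below 0.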

How the data were processed

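The 2 libraries hold UMI counts per gene and barcode, deposited by the authors as raw counts without normalization, for barcodes called by cellranger 6.0.1 on build SL4.0 with ITAG4.1. Total counts per library are given above, and their intervals cover counting error only. The members and gene lists were chosen with earlier results of these data known, and list identifiers came from general knowledge, so lists are described by counts and medians. The features tables held no descriptions, so lists meant to be found by description (dividing cells, WRKY, defence and others) were not analysed here. Descriptions came from the study's tables of suberin modules.

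Cells had at least 2000 UMIs and at most 1% from 28 organelle entries. Counts were summed per library and set of cells and tested in edgeR 4.0.16 (filterByExpr, TMM, quasi-likelihood F test, library as a block, Benjamini-Hochberg at 0.05). Standard errors were derived from the fold change and its F statistic. Fold changes of single libraries are log2 ratios with 5 CPM added. Clusters were made with the Leiden method (leidenalg 0.10.2) at resolution 1 on 35 principal components of 2000 variable genes, and named where 3 markers peaked. Doublets were kept, and in 1 alternative the 5% of cells with most UMIs were left out. Pairing needs no check, since both sums come from 1 library. Named genes were the 12 highest and 8 lowest annotated genes past the threshold with a mean of at least 10 CPM and 1 direction in both libraries, and every listed jasmonate gene tested. The glycoalkaloid and marker genes were the 4 largest and 2 smallest called, with exceptions chosen after their values were seen. The fit was tested on simulated data. DESeq2 1.42.0 was an alternative. No sequences are printed, since none were at hand.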

Additional observations from a re-analysis of the deposited data

How the results depend on the processing

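Cells were also chosen as the top 2% or 10%, with minima of 1000 or 4000 UMIs, an organelle limit of 5%, after thinning, by either JAZ subset, without the deepest cells, and with other scalings, filters and tests; 2 cluster alternatives and library totals alone were chosen after seeing the data. Of the values that answer a comparison, 98 were counted as unchanged, 11 moved and 2 weakened. Direction and side of the threshold were compared for the JAZ genes only. Counts of calls were taken as unchanged within a set factor of the main value. The 98 thus include 4266 higher calls with library totals alone, against 3101 in the main fit. Without the replicate block, calls against the rest were 659 higher and 627 lower, those against matched cells 0 and 0, and the log2 fold changes of Solyc03g118540 and Solyc08g036640 were 1.21 and 4.39, both no longer past the threshold. In that unpaired fit 3 synthesis, 1 perception and 5 glycoalkaloid genes were called, and 0 exodermis (0 higher and 1 lower without adjustment), 0 endodermis (2 higher without adjustment) and 0 phloem genes (0 without adjustment). The lower calls were 1877 with library totals alone. Matched calls were 917 and 547 at clustering resolution 2, and 1044 and 615 with the DESeq2 Wald test. The mean share of JAZ-high cells in their main cluster, 25.5%, was 35.5% at resolution 0.5 and 35.9% at resolution 2. Each share is of whichever cluster held most, and that cluster was not made of the same cells in each setting. Reversals fell on genes that did not pass the test: Solyc06g068930 (-0.36 for the top 10%, -0.048 by induced JAZ genes, -0.077 without cluster 24, -0.064 unfiltered), Solyc05g018320 (0.047 at 1000 UMIs, 0.031 thinned, 0.083 by induced JAZ genes, 0.33 with library totals, 0.013 without the block), Solyc12g006850 (0.47 for the top 2%, 0.046 thinned, 0.20 by induced JAZ genes, 0.092 with library totals), Solyc05g050280 and Solyc04g011600 (-0.76 and -0.32 for the top 2%), Solyc06g083980 (-0.11 without cluster 24), Solyc01g094700 (0.059 by induced JAZ genes) and Solyc02g072240 (-0.12 in DESeq2). The causes were not tested. Leaving out a library leaves 1 sum per set and no test, so call counts have no such value. The median of the synthesis list (log2 ratio with 5 CPM added) was 2.82 without replicate 2 and 3.45 without replicate 1, that of the glycoalkaloid list -2.04 and -2.12, that of the endodermis list 2.14 and 0.70, and that of the exodermis list 0.10 and 0.92, so the last rests on replicate 2.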
